A study of Mus musculus with 12 samples.

Results

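The type I interferon response genes are a set of 35 mouse genes named for their induction by interferon alpha and beta, and all 35 were found by symbol among the 24411 genes of each table. All 35 also passed the low-count filter that left 13755 genes for testing. They fall into 8 role classes: sensors of foreign nucleic acid (4 genes), transcription factors (4), the ISG15 system (4), ADP-ribosylation enzymes (4), RNA and nucleotide effectors (9), membrane effectors (2), other induced genes (5) and the peptide supply of class I molecules (3).

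RNA was sequenced from Lineage- cKit+ bone marrow cells, a gate for stem cells and progenitors, taken from femora and tibiae of C57BL/6 mice. Each of 4 groups had 3 libraries, and the groups differ in the genotype of the transplanted CD45.2 marrow: Mx1-Cre alone (control), Mx1-Cre with Inv(3), Mx1-Cre with heterozygous Sf3b1-K700E, and Mx1-Cre with both alleles (the double group). Inv(3) stands for the chromosomal rearrangement of human leukemia that puts EVI1 (Mecom in the mouse) under the control of an enhancer of GATA2, and K700E is a point mutation of the splicing factor Sf3b1. The series asks what altered splicing of EVI1 contributes to leukemia with such rearrangements. In all groups donor cells were given with an equal number of wild-type CD45.1 support cells to CD45.1 recipients irradiated 2 times with 450 cGy. All recipients, the control group included, received pIpC at 20 mg/kg in 3 doses 4 weeks after transplant, and cells were taken 6 months after that. The sources used here give neither a sort of CD45.2 cells from support and recipient cells nor whether the libraries of a group came from separate mice, so p-values measure the spread between these libraries.

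The inducing agent is itself part of the pathway studied here. pIpC is a double-stranded RNA mimic that raises interferon, and Mx1-Cre is driven by an interferon-inducible promoter; every group shares both, and no library without them was analysed here. No group in these data was given interferon or had its receptor removed, so the set is described by its members' levels only.

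Library totals were 73074797 to 86555638 expected counts. Values below are counts per 1000000 (CPM) after TMM scaling, log2 differences are from the count model with their standard error (SE), and a gene was called where the edgeR quasi-likelihood test gave a Benjamini-Hochberg adjusted p under 0.05 over all 13755 genes. Sex-linked RNA set one group apart: summed Y-linked counts were 4 to 8 in the inv(3) libraries and 19200 to 25380 in the 9 others, and Xist was 1794 to 2095 CPM in these libraries, 23.2 to 40.5 in control and double, and 77.1 to 209.7 with Sf3b1 K700E. In each comparison that uses the inv(3) group, the interaction included, the genotype and the presence of Y-linked RNA cannot be told apart; the double group against Sf3b1 K700E and both groups against control have Y-linked RNA on either side. Progenitor markers (8 genes, Kit, Mpo and Elane among them) summed to 29198 to 31764 CPM in control, 19091 to 23331 with Sf3b1 K700E, 35080 to 35870.2 with inv(3) and 26571 to 30224 with both alleles, with none at 0. In inv(3) against control 1 of these 8 was called higher and 4 lower. Markers of mature cells differed with inv(3). The 9 neutrophil markers in the tables summed to 1375 to 2064 CPM in control and 1152 to 2186 with Sf3b1 K700E, against 4419 to 5426 with inv(3) and 2475 to 3674 with both alleles. In inv(3) against control 5 of the 9 were called higher and 1 lower, with log2 differences from -4.93 to 3.19. Of all genes 18.4% were called higher and 20.3% lower there. The sum of the 10 macrophage markers went the other way, at 341 to 430.3 CPM in control and 449 to 607 with Sf3b1 K700E, against 82.9 to 126 with inv(3) and 67.0 to 87.1 with both. Among these 10, inv(3) against control had 7 called lower and 1 higher. The 8 markers of plasmacytoid dendritic cells, the chief interferon producers, summed to 51.5 to 51.7 CPM in control, 54.7 to 58.9 with Sf3b1 K700E, 20.6 to 29.2 with inv(3) and 33.6 to 50.3 with both. Nearly all of that sum is Tcf4, which other cells also express (mean 50.7 CPM in control). The more specific markers were near 0 throughout: Siglech had 13 counts over the control libraries, 24 with Sf3b1 K700E, 0 with inv(3) and 1 with both, Cox6a2 had 36, 66, 3 and 3 in that order, Ccr9 56, 106, 21 and 12, and Klk1 1 count in all 12 libraries. The part of these cells in the results below was not tested. In such bulk samples fewer cells of a type and less RNA per cell cannot be told apart.

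Interferon alpha and beta bind the receptor pair Ifnar1 and Ifnar2, whose kinases Jak1 and Tyk2 phosphorylate STAT proteins, Stat2 among them. Stat2 and Irf9 are subunits of the factor ISGF3, which binds interferon-stimulated response elements in the promoters of the target genes, and the targets include the sensors and factors that raise more interferon. In blood stem cells and progenitors interferon is known to end quiescence, and part of the set is expressed without infection.

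To see which members have the response element near their start, the promoters of the RefSeq table (250 bases before to 50 after each start, GRCm38.p6) were searched. The search took both strands and looked for GAAA and a further GAAA with any 2 bases between them, the core of the element. The table holds 29 of the 35 members, and not Rtp4, Usp18, Dhx58, Zbp1, Parp9 or Parp14. The letters were present in 11 of the 29 (37.9%), against 3.99% of the 27025 genes with a promoter in the table. TTCNNNGAA, the letters of the site that interferon gamma acts through, were present in 10 of the 29 (34.5%), against 9.55% of all. A match is a description of these windows, and so is a missing one. In the ADP-ribosylation class only Parp12 and Dtx3l could be searched, and neither had a match. For each of the first 6 classes the member with the largest difference between inv(3) and control among those with a match is printed here, 5′ to 3′ on the gene's strand. Matches to the element are in capitals, read as TTTC and TTTC around 2 bases where they lie on the other strand.
Ddx58 (chr4:40239814-40240075, minus strand, 250 bases before to 12 after the start): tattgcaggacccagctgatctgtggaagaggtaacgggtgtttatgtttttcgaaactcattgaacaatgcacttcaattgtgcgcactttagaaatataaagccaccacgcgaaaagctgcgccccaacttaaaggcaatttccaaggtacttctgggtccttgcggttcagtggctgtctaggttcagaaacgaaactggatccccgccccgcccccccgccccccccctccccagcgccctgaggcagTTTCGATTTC
Stat2 (chr10:128270248-128270497, plus strand, the 250 bases before the start): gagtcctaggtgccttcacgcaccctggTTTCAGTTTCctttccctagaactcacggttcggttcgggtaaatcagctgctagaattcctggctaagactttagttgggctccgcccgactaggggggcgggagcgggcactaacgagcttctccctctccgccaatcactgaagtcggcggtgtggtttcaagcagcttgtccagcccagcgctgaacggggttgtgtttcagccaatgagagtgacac
Isg15 (chr4:156200819-156201068, minus strand, the 250 bases before the start): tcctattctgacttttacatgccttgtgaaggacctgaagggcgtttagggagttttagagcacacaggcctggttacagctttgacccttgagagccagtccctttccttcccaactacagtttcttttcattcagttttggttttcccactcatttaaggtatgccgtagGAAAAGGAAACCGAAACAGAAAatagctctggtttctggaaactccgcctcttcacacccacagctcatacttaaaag
Ifit1 (chr19:34640639-34640888, plus strand, the 250 bases before the start): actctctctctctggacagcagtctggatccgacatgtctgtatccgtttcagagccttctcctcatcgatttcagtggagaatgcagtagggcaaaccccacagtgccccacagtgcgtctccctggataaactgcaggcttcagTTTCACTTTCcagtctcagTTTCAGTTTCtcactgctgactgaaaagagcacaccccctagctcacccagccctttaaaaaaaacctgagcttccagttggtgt
Ifitm3 (chr7:141010716-141010994, minus strand, 250 bases before to 29 after the start): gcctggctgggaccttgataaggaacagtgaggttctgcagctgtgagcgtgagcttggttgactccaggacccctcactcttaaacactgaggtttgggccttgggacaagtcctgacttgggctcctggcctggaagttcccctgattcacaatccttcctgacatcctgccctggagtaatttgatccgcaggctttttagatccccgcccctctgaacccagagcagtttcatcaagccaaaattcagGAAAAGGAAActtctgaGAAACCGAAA
Isg15 has 3 matches that overlap in one run, beginning 78, 72 and 66 bases before the start, and Ifit1 has 2 apart from each other, beginning 104 and 85 bases before it. The matches of Ddx58 and Ifitm3 lie just after the start. Of the 11 members with the letters, 7 rose in the double group against control and 0 fell, and of the 18 without them 13 rose and 2 fell. Of all genes tested 20.8% rose and 20.4% fell in that comparison.

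Cells with inv(3) alone had more RNA of most members than control. Of the 35, 20 were higher and 1 was lower, where 38.7% of all 13755 genes were called, 18.4% higher and 20.3% lower. The median member difference was 0.26 log2 units, against 0.0034 over all genes tested. The rises took in sensors (3 of 4), factors (3 of 4), ISG15 genes (2 of 4), ADP-ribosylation enzymes (3 of 4), RNA and nucleotide effectors (5 of 9) and other induced genes (4 of 5), and no membrane effector or peptide supply gene. Isg15, a ubiquitin-like protein joined to other proteins in infected cells, rose most, by 1.13 ± 0.17 log2 units (adjusted p = 0.00027), and the fall was that of Ifit2. In 21 members every inv(3) library was above every control library and in 1 every one was below, against 24.9% and 26.9% of all genes.

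Few members were called with Sf3b1 K700E alone. Of the 35, 3 were higher than in control and 0 lower, where 8.84% of all genes were called, 3.94% higher and 4.9% lower, and the median member difference was 0.084 against -0.0053 over all genes. The 3 were Rtp4, Rsad2 and Parp12, each 0.48 to 0.86 log2 units higher. Every Sf3b1 K700E library was above every control library in 13 members, against 17.7% of all genes, and below in 0, against 15.8%. At an unadjusted p under 0.05, 13 members were higher and 0 lower by edgeR, against 12.2% and 13.7% of all genes. DESeq2 called 9 higher, against 6.56% of all genes, and the fit of these groups alone 9, against 6.07%. Without Sf3b1 K700E replicate 3 the count was 7 (3.92% of all genes), and without inv(3) replicate 1 or 2 it was 6 (4.39% and 5.62%). Markers of macrophages (8 of 10 genes called), B cells (4 of 7 tested) and erythroid cells (2 of 6) were higher in these libraries too, and their part in the 3 rises was not tested.

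The double group had the highest levels. Against control, 25 of 35 members were higher and 2 were lower, where 41.1% of all genes were called, 20.8% higher and 20.4% lower, with a median of 0.47 log2 units against 0.0024 over all genes. Every factor (4 of 4), every ADP-ribosylation enzyme (4 of 4) and every other induced gene (5 of 5) rose, with 3 of 4 sensors, 3 of 4 ISG15 genes, 5 of 9 RNA and nucleotide effectors and 1 of 2 membrane effectors. Ifitm3, which blocks entry of viruses at membranes, rose by 1.55 ± 0.26, and Rtp4 by 1.54 ± 0.15. The members that fell were Ifit2 and Isg20. All 3 double libraries lay above all control libraries in 26 members and below in 2, against 27.3% and 27.5% of all genes. In 18 members they lay above each of the 9 other libraries, and in 0 below them all, against 8.71% and 4.45% of all genes.

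With Sf3b1 K700E on both sides and Y-linked RNA in all 6 libraries, the double group against Sf3b1 K700E gives the inv(3) difference in a second background. Sex-linked RNA was still not equal here. Xist was called lower in double, by -2.39 log2 units, at 23.2 to 40.5 CPM against 77.1 to 209.7 with Sf3b1 K700E. Of the 35 members 23 were higher and 2 lower, where 49.2% of all genes were called, 25.7% higher and 23.5% lower, and the median was 0.35 log2 units against 0.025. This comparison shares no library with inv(3) against control, and 20 members were higher in both, against 15.3% of all genes. The largest rises were those of Ifitm3 (1.10 ± 0.25 log2 units), Isg15 (1.09 ± 0.16), Zbp1 (1.03 ± 0.16) and Ifit1 (1.00 ± 0.16), and the falls those of Usp18 (-0.70 ± 0.20) and Ifit2 (-0.37 ± 0.08). Libraries were apart in 24 members with double higher and 3 with double lower, against 29.6% and 28% of all genes. Markers of macrophages fell here in 10 of 10 genes, of erythroid cells in 6 of 6 and of B cells in 6 of 7 tested. Monocyte markers fell in 4 of 6 and those of plasmacytoid dendritic cells in 4 of 6 tested. The risers were 4 of 9 neutrophil markers, 2 of 6 monocyte markers and 1 of 7 B cell markers. The summed B cell markers were higher in double, at 32.5 to 33.4 CPM against 24.4 to 25.7 with Sf3b1 K700E. The part of these cells was not tested.

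The double group also stood above inv(3) alone. Against inv(3), 15 of 35 were higher in the double group and 0 lower, where 22.6% of all genes were called, 13.4% higher and 9.13% lower, with a median of 0.21 log2 units against 0.0025. Among the 15 were Ifitm3 (1.25 ± 0.25 log2 units), Ifi44 (1.32 ± 0.27), Rtp4 (0.95 ± 0.15) and Rsad2 (0.60 ± 0.11). Every double library was above every inv(3) library in 21 members and below in 0, against 21.9% and 17.6%. The number lower was 0 also at an unadjusted p under 0.05 by edgeR and 0 by DESeq2, against 15.6% and 11.7% of all genes. The number higher was 10 without double replicate 3, against 7.09% of all genes. Ddx58 lost its call in 12 of 21 settings (adjusted p up to 0.18), and Irf9, Parp12, Ifit1 and Xaf1 each lost theirs with some library left out. This comparison shares the inv(3) libraries with inv(3) against control and the double libraries with the other comparisons of the double group, so the sets of genes are not independent of each other.

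**Figure D1:**
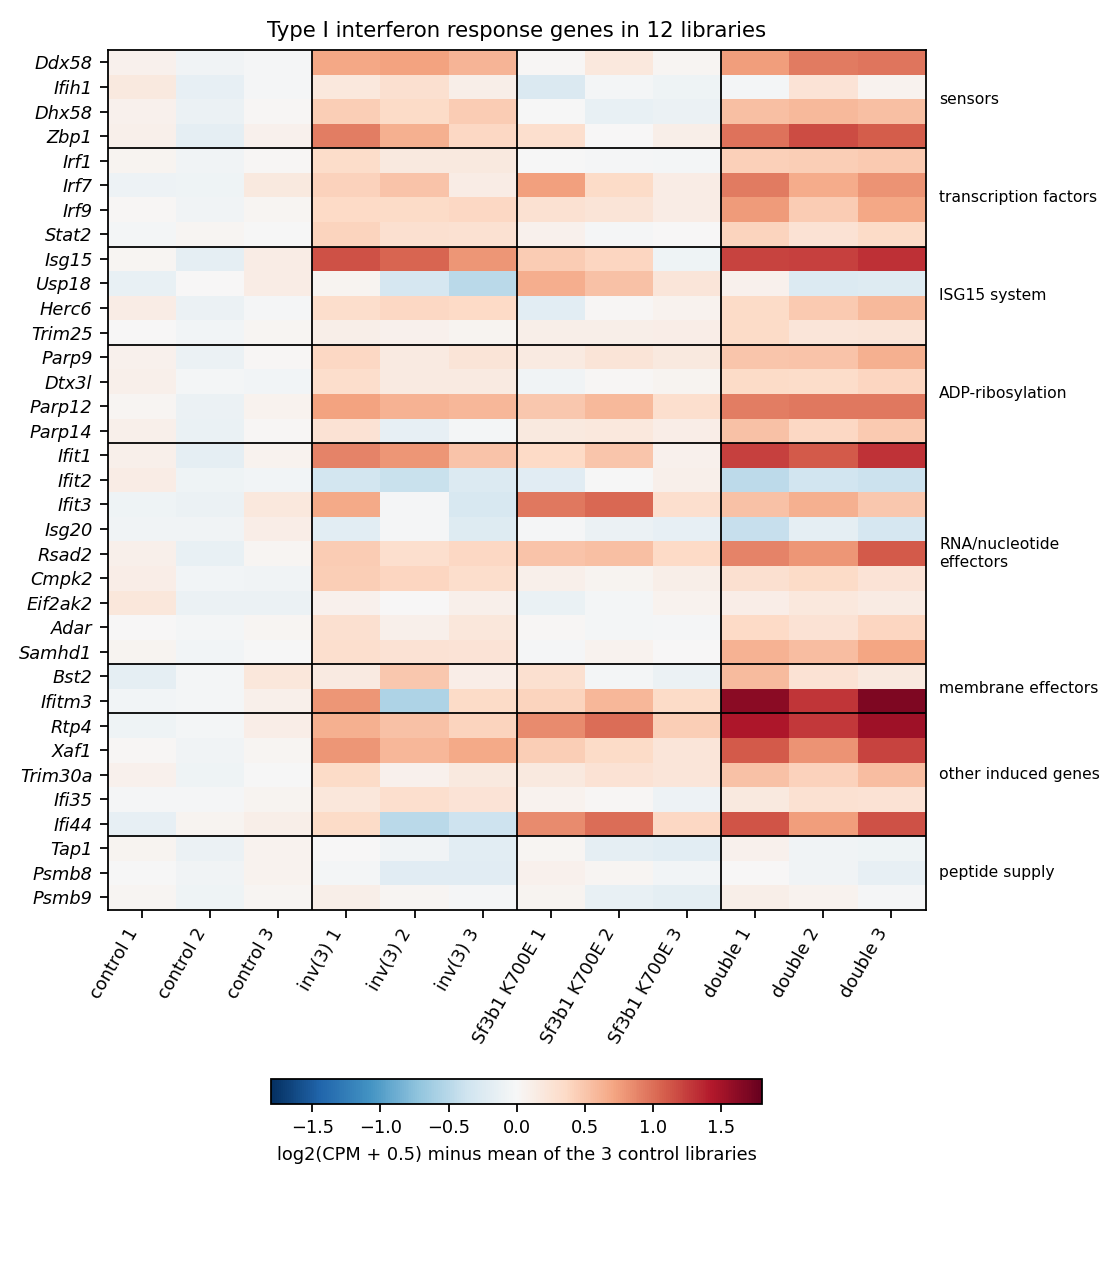
Each row is a member, grouped by role, and each column a library; the colour is log2(CPM + 0.5) minus the mean of the 3 control libraries, red higher and blue lower. The double columns are the reddest, with a median over members of 0.45 to 0.52 in each library, against 0.21 to 0.34 with inv(3), 0.065 to 0.100 with Sf3b1 K700E and -0.066 to 0.040 in control.

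The same order showed library by library: the ranges of the median member, from control through Sf3b1 K700E and inv(3) to double, did not overlap between groups. Of the 35 members, 26 had their highest group mean in double, against 26.6% of all genes. Control was lowest in 21, against 15.6%, and Sf3b1 K700E in 9, against 32.8%.

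**Figure D2:**
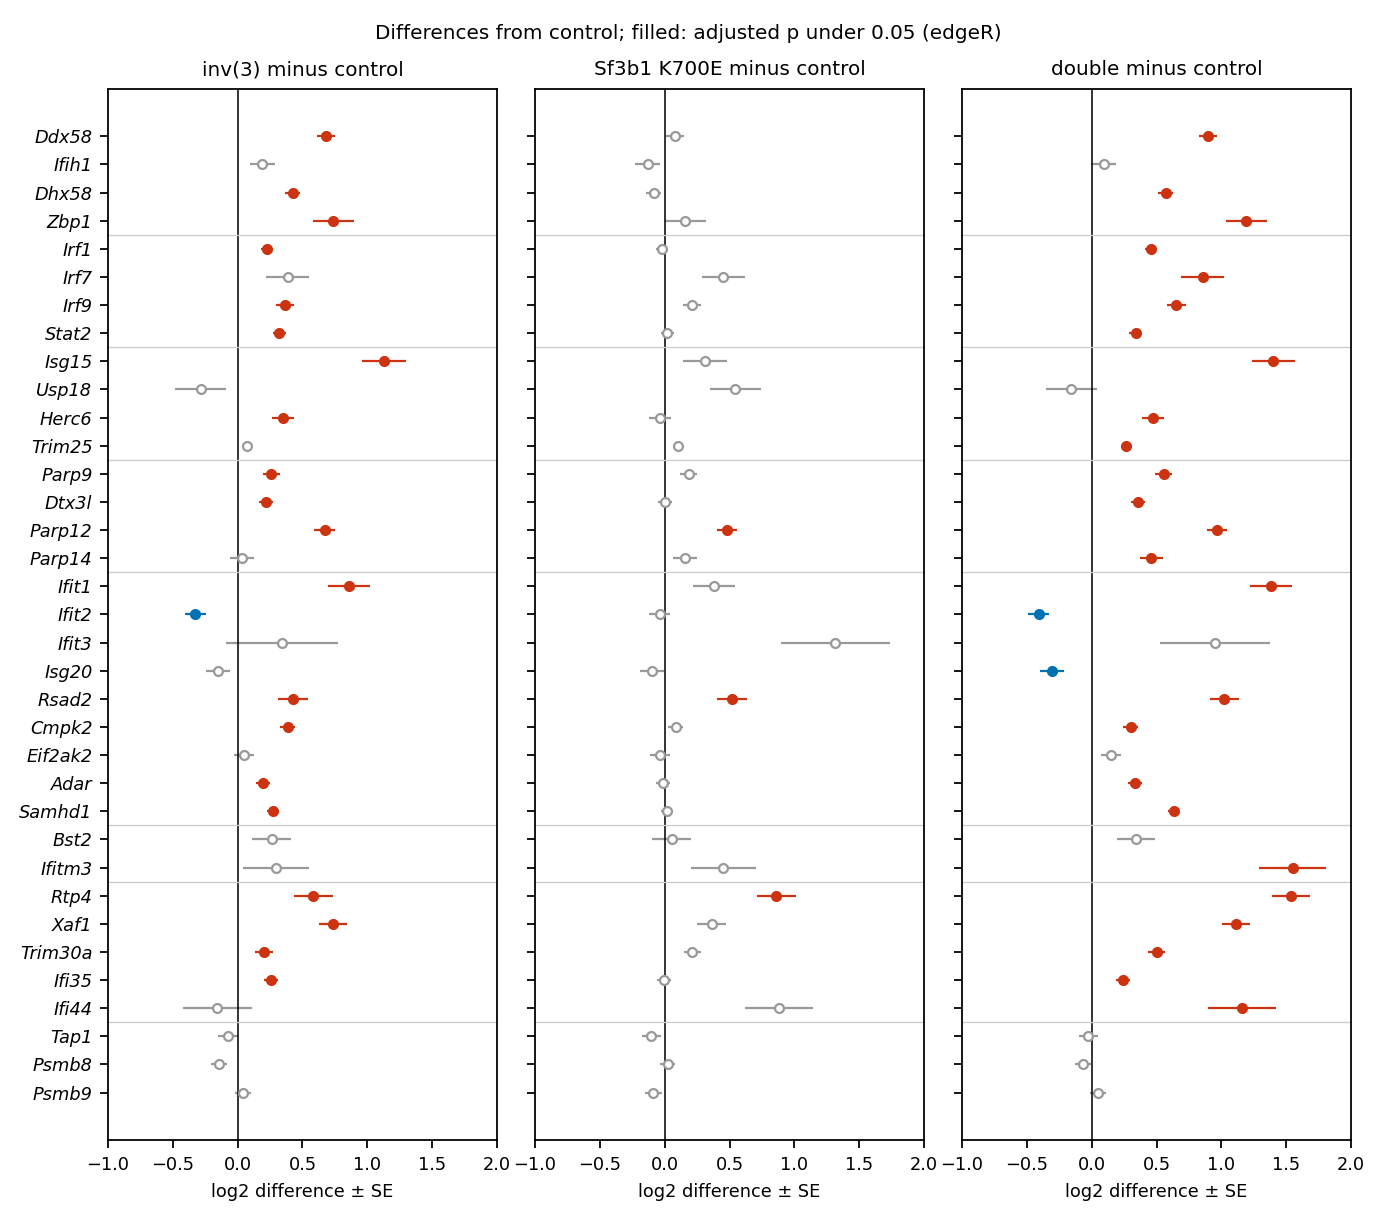
Log2 difference from control of each member in inv(3), Sf3b1 K700E and double, with bars for the SE (3 libraries a group); filled points have an adjusted p under 0.05, red higher and blue lower. Filled red points number 20, 3 and 25 in the panels, and the 3 genes of the peptide supply at the bottom stay near 0 in each.

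The sensors were read first, since they stand at the start of the pathway. Ddx58 (chr4:40203773-40239828, minus strand) encodes RIG-I, which binds short double-stranded RNA with a free triphosphate end. It measured 36.1, 32.6 and 33.6 CPM in the control libraries, 34.4, 38.9 and 34.9 with Sf3b1 K700E, 55.5, 56.4 and 52.6 with inv(3) and 57.5, 65.9 and 67.1 with both alleles. The 6 libraries with inv(3) all lay above the 6 without it. Its difference from control was 0.68 ± 0.07 log2 units in inv(3) (adjusted p = 2.0e-05) and 0.90 ± 0.07 in double (adjusted p = 1.8e-06), while that in Sf3b1 K700E did not pass (0.08 ± 0.07, adjusted p = 0.5). Zbp1 (chr2:173206612-173218923, minus strand) recognises nucleic acid in the left-handed Z form and can start cell death. Its levels were 3.34, 2.72 and 3.30 CPM in control, 3.95, 3.14 and 3.37 with Sf3b1 K700E, 6.35, 5.10 and 4.15 with inv(3) and 6.60, 7.63 and 7.18 with both alleles. Each double library was above all others, and the lowest inv(3) library stood just above the highest Sf3b1 K700E one. Zbp1 rose by 0.74 ± 0.16 in inv(3) (adjusted p = 0.0033) and by 1.19 ± 0.16 in double (adjusted p = 0.00011). Dhx58, the regulator LGP2 of the other sensors, rose by 0.42 ± 0.06 in inv(3) and 0.57 ± 0.06 in double, although reads of a gene on the other strand, Dhx58os, cannot be told from its own in these unstranded libraries. Ifih1, which encodes MDA5, the sensor of long double-stranded RNA, passed in no comparison, with differences of 0.19 ± 0.10 in inv(3), -0.13 ± 0.10 in Sf3b1 K700E and 0.09 ± 0.10 in double; without control replicate 1 it passed in inv(3) (adjusted p = 0.043).

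Of the factors, the ISGF3 genes Stat2 and Irf9 rose with inv(3). Irf9 (chr14:55603571-55610030, plus strand), the DNA-binding subunit, measured 44.3, 42.0 and 44.9 CPM in control, 52.7, 51.4 and 47.8 with Sf3b1 K700E, 56.2, 55.7 and 56.8 with inv(3) and 74.9, 60.2 and 71.1 with both alleles. The 4 groups did not overlap: control was lowest, then Sf3b1 K700E, inv(3) and double. Exons of Irf9 overlap those of Rnf31 on the same strand, so part of its reads may belong to that gene. Neighbouring groups differed by 0.21 ± 0.07 between Sf3b1 K700E and control, which did not pass (adjusted p = 0.083), and by 0.29 ± 0.07 between double and inv(3), which did (adjusted p = 0.013). Irf1 (chr11:53770014-53778374, plus strand), a factor that interferon gamma also induces, was 67.5, 62.6 and 66.1 CPM in control, 65.1, 64.3 and 63.9 with Sf3b1 K700E, 82.3, 73.6 and 73.6 with inv(3) and 88.5, 89.4 and 91.1 with both alleles. Again every library with inv(3) was above every one without, and double stood above inv(3) by 0.23 ± 0.05 log2 units (adjusted p = 0.0067). Irf7 (chr7:141262706-141266481, minus strand), the factor that amplifies the interferon alpha genes, was 4.93, 5.02 and 6.03 CPM in control, 9.16, 6.85 and 5.85 with Sf3b1 K700E, 7.23, 7.79 and 5.88 with inv(3) and 10.6, 8.68 and 9.68 with both alleles. Here inv(3) overlapped control and Sf3b1 K700E overlapped all 3 other groups, and the call was made against control in double only (0.86 ± 0.17, adjusted p = 0.0015). Without Sf3b1 K700E replicate 1 it was also called in inv(3) (adjusted p = 0.04). Exons of Irf7 overlap those of Phrf1, and exons of Irf1 those of Gm17334, in both cases on the other strand. Stat2 rose by 0.32 ± 0.05 in inv(3) and 0.34 ± 0.05 in double, with 0.02 ± 0.05 between the last pair (adjusted p = 0.83).

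The ISG15 system attaches and removes the ubiquitin-like Isg15 protein. Isg15 (chr4:156199424-156200818, minus strand) measured 2.74, 2.31 and 2.94 CPM in control, 3.84, 3.60 and 2.48 with Sf3b1 K700E, 6.45, 6.04 and 4.99 with inv(3) and 6.84, 6.89 and 7.37 with both alleles. The 6 libraries with inv(3) lay above the 6 without, and the groups with inv(3) differed from each other by 0.27 ± 0.16, short of a call (adjusted p = 0.25). Its promoter is the one with the run of 3 overlapping matches. Herc6 (chr6:57581000-57664632, plus strand), the main ligase that joins Isg15 to proteins in the mouse, was 31.0, 26.2 and 27.9 CPM in control, 24.6, 28.8 and 29.6 with Sf3b1 K700E, 35.3, 36.6 and 36.5 with inv(3) and 35.9, 39.5 and 42.6 with both alleles. It followed Isg15 with a smaller difference, 0.35 ± 0.08 in inv(3) and 0.47 ± 0.08 in double. Its exons overlap those of Gm45193 on the same strand, so part of the reads may belong to that gene. Usp18 (chr6:121245906-121270917, plus strand), the protease that removes Isg15 and also damps the receptor, went another way. It was 2.32, 2.58 and 2.87 CPM in control, 4.34, 3.92 and 3.08 with Sf3b1 K700E, 2.69, 1.99 and 1.70 with inv(3) and 2.75, 2.09 and 2.13 with both alleles. The Sf3b1 K700E libraries were highest, and all 3 lay above the 9 others. Usp18 was lower in double than in Sf3b1 K700E by -0.70 ± 0.20 (adjusted p = 0.011) and passed in no other comparison. Trim25, a ubiquitin ligase that acts on RIG-I, rose by 0.26 ± 0.04 in double and did not pass in inv(3) (0.07 ± 0.04).

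The enzymes outside the set that load Isg15 did not move together. Uba7 activates Isg15 in the first step and measured 77.0, 78.2 and 83.6 CPM in control, 85.3, 83.5 and 76.1 with Sf3b1 K700E, 146, 149.6 and 148 with inv(3) and 204, 201 and 233 with both alleles. Every double library was above every inv(3) library, and these were above the 6 others. Its rise was 0.89 ± 0.06 in inv(3) and 1.42 ± 0.06 in double, and it passed the interaction test (0.49 ± 0.09, adjusted p = 0.031). Ube2l6, the carrier of the second step, was lower in inv(3) than in control (-0.31 ± 0.10, adjusted p = 0.029) and higher in double than in inv(3) (0.43 ± 0.10, adjusted p = 0.011).

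**Figure D3:**
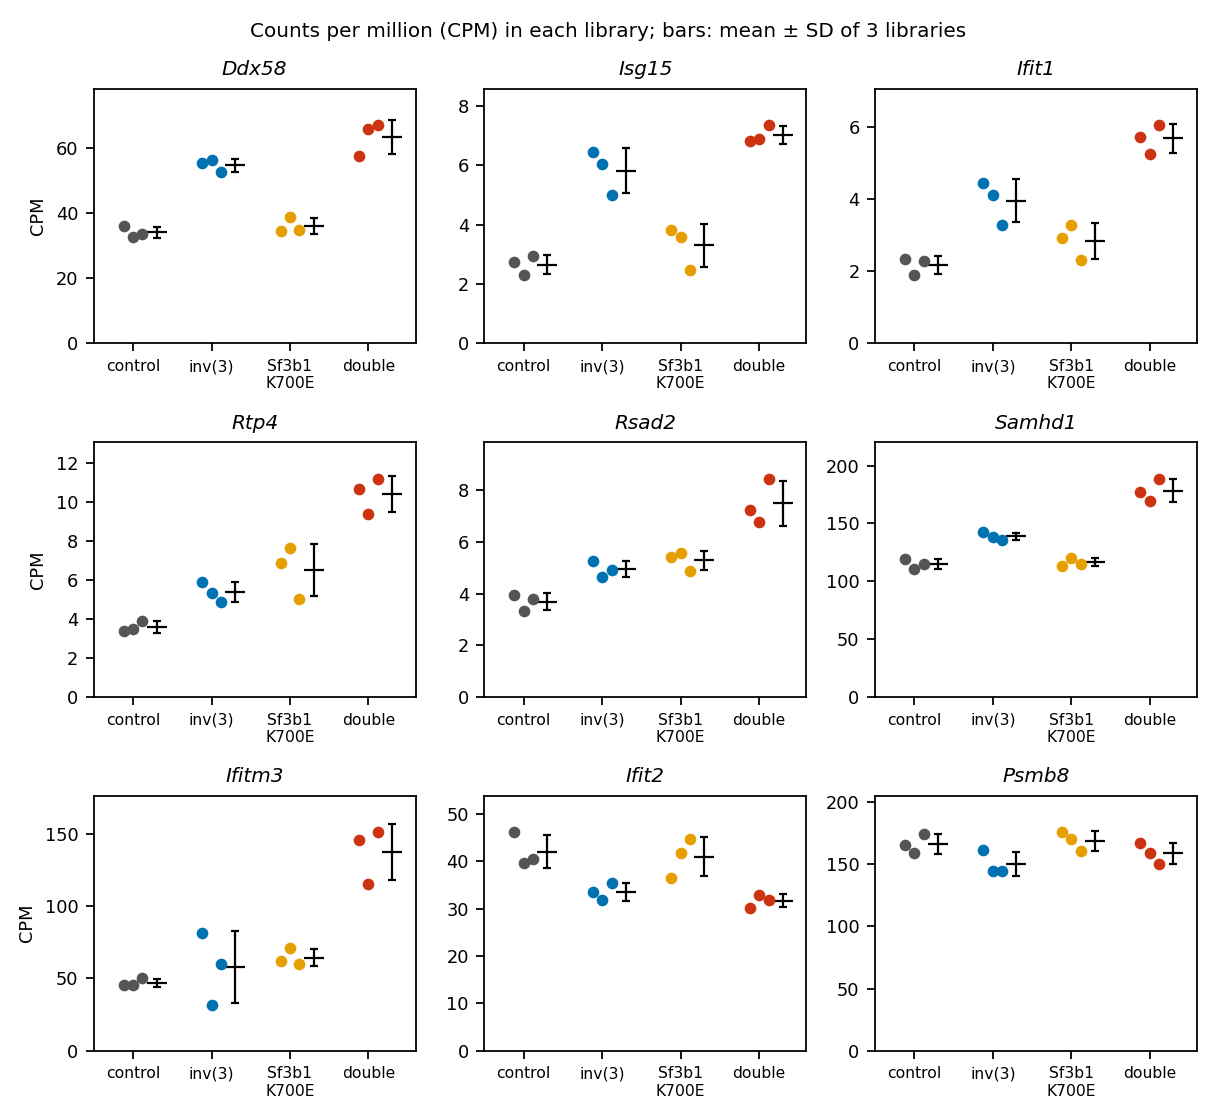
CPM in each of the 12 libraries (points) with the mean ± SD of the 3 libraries of each group (bars) for 9 members, on axes that start at 0. Ddx58, Isg15 and Ifit1 are higher in the libraries with inv(3), Rtp4 and Rsad2 also in Sf3b1 K700E, Ifit2 is lower with inv(3), and the Psmb8 groups overlap.

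The ADP-ribosylation enzymes add ADP-ribose to proteins or nucleic acids. Parp12 (chr6:39086410-39118349, minus strand), which limits translation of viral RNA, measured 11.7, 10.6 and 11.9 CPM in control, 16.2, 17.4 and 14.2 with Sf3b1 K700E, 19.1, 17.9 and 17.4 with inv(3) and 21.9, 22.5 and 22.3 with both alleles. All mutant libraries were above all control libraries, and the double libraries above the rest. With Rsad2 and Rtp4 it was called in each of the 5 pairwise comparisons, and its difference from control was 0.67 ± 0.08 in inv(3), 0.48 ± 0.08 in Sf3b1 K700E (adjusted p = 0.0071) and 0.97 ± 0.08 in double. Parp9 (chr16:35938470-35972605, plus strand) was 41.3, 36.5 and 39.8 CPM in control, 43.8, 45.9 and 44.2 with Sf3b1 K700E, 51.0, 43.7 and 45.9 with inv(3) and 55.8, 56.0 and 61.1 with both alleles. Control was below all 9 other libraries, and double above them. Its partner protein Dtx3l is made from a gene that begins 681 bases away on the other strand, with exons that overlap, so unstranded reads from the overlap cannot be assigned by strand. Dtx3l rose by 0.22 ± 0.05 in inv(3) and 0.36 ± 0.05 in double, against 0.26 ± 0.07 and 0.56 ± 0.07 for Parp9. Parp14, an ADP-ribosyltransferase from the same stretch of chromosome 16, was level in inv(3) (0.03 ± 0.09, adjusted p = 0.81) and higher in double (0.46 ± 0.09, adjusted p = 0.0019). Its exons overlap those of Gm49730 on the same strand.

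The RNA and nucleotide effectors had members on both sides in inv(3) and in double against control. Ifit1 (chr19:34640871-34650009, plus strand), which binds viral RNA by its 5′ end, measured 2.33, 1.89 and 2.29 CPM in control, 2.91, 3.28 and 2.30 with Sf3b1 K700E, 4.44, 4.11 and 3.29 with inv(3) and 5.72, 5.25 and 6.05 with both alleles. Double libraries were highest, with inv(3) between them and control. Ifit1 rose by 0.86 ± 0.16 in inv(3) (adjusted p = 0.0013) and by 1.39 ± 0.16 in double (adjusted p = 4.0e-05). Ifit2 (chr19:34550694-34576419, plus strand), a neighbour of Ifit1 that binds AU-rich RNA, is described here because it fell, a choice made after its values were seen. It was 46.2, 39.6 and 40.5 CPM in control, 36.5, 41.9 and 44.7 with Sf3b1 K700E, 33.5, 31.8 and 35.5 with inv(3) and 30.2, 33.0 and 31.9 with both alleles. The 6 libraries with inv(3) all lay below the 6 without it, the reverse of Ifit1 on the same strand 90177 bases away. Ifit2 fell by 0.33 ± 0.08 log2 units in inv(3) (adjusted p = 0.0076) and by 0.41 ± 0.08 in double (adjusted p = 0.0017). Ifit3, which lies between these genes, was the lowest member, at 0.447 TPM in control, and passed in no comparison (0.34 ± 0.43 in inv(3), 1.32 ± 0.42 in Sf3b1 K700E, 0.95 ± 0.42 in double). Without inv(3) replicate 1, the highest of its group, it passed in Sf3b1 K700E (adjusted p = 0.025) and in double (adjusted p = 0.029). It shares reads with its near copy Ifit3b, and with both genes added the group sums were 152 counts in control, 358 with Sf3b1 K700E, 173 with inv(3) and 279 with both alleles.

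Rsad2 and Samhd1 act on nucleotides. Rsad2 (chr12:26442746-26456452, minus strand) encodes viperin, which turns CTP into a chain terminator of viral polymerases. It measured 3.96, 3.33 and 3.78 CPM in control, 5.44, 5.56 and 4.87 with Sf3b1 K700E, 5.26, 4.66 and 4.93 with inv(3) and 7.25, 6.78 and 8.46 with both alleles. All 9 mutant libraries were above the control libraries, and inv(3) and Sf3b1 K700E overlapped. Rsad2 rose by 0.43 ± 0.11 in inv(3) (adjusted p = 0.012), by 0.52 ± 0.11 in Sf3b1 K700E (adjusted p = 0.019) and by 1.02 ± 0.11 in double. Without control replicate 2, or without Sf3b1 K700E replicate 2, the Sf3b1 K700E call was lost (adjusted p up to 0.097), and without control replicate 2 the inv(3) call was lost (adjusted p = 0.056). Its neighbour Cmpk2, a nucleotide kinase whose start is 12752 bases away on the other strand, rose in inv(3) (0.39 ± 0.06) and double (0.30 ± 0.06) and did not pass in Sf3b1 K700E (0.08 ± 0.06, adjusted p = 0.38). Samhd1 (chr2:157097533-157135265, minus strand) breaks down the deoxynucleotides that viruses need. It was 119, 111 and 115 CPM in control, 114, 120.3 and 115 with Sf3b1 K700E, 142, 138 and 136 with inv(3) and 177, 169 and 189 with both alleles. Control and Sf3b1 K700E overlapped, inv(3) lay above them and double above all. Samhd1 rose by 0.27 ± 0.05 in inv(3) and 0.63 ± 0.05 in double, and in Sf3b1 K700E its difference was 0.02 ± 0.05 (adjusted p = 0.87).

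The rest of that class was mixed. Adar, which edits adenosine to inosine in double-stranded RNA, rose by 0.20 ± 0.05 in inv(3), a call lost without inv(3) replicate 1 (adjusted p = 0.052) or control replicate 2, and by 0.33 ± 0.05 in double. Its exons overlap those of Chrnb2 on the other strand. Isg20, a nuclease of single-stranded RNA, was lower in double (-0.30 ± 0.09, adjusted p = 0.021) and did not pass in inv(3) (-0.15 ± 0.09, adjusted p = 0.23); the double call was lost without control replicate 3 or double replicate 1 or 3 (adjusted p up to 0.094). Eif2ak2, the kinase PKR that halts translation, passed nowhere (0.05 ± 0.08 in inv(3) and 0.15 ± 0.08 in double), but without control replicate 1 it did in double (adjusted p = 0.0044) and in inv(3) (adjusted p = 0.043).

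The membrane effectors differed from each other. Ifitm3 (chr7:141009586-141010770, minus strand) measured 45.1, 45.7 and 50.03 CPM in control, 62.0, 71.2 and 59.8 with Sf3b1 K700E, 81.6, 31.8 and 59.7 with inv(3) and 146, 115 and 151 with both alleles. The double libraries were above all others, and the inv(3) libraries spread from below control to above Sf3b1 K700E. Ifitm3 rose in double against control (adjusted p = 0.00069), inv(3) (adjusted p = 0.0068) and Sf3b1 K700E (adjusted p = 0.0043), and passed neither in inv(3) (0.30 ± 0.25) nor in Sf3b1 K700E (0.45 ± 0.25) against control. Without inv(3) replicate 2, the low library, both of these passed (adjusted p = 0.0078 and 0.042). Part of its reads may belong to its near copy Ifitm2, which had 217.5 to 223.7 CPM in control and 208.6 to 239.4 in double. Bst2 (chr8:71534255-71537456, minus strand) encodes tetherin, which holds budding virus at the cell surface and is abundant on plasmacytoid dendritic cells. It was 21.7, 23.8 and 28.1 CPM in control, 30.0, 23.9 and 22.6 with Sf3b1 K700E, 27.4, 34.4 and 26.5 with inv(3) and 36.4, 29.4 and 27.5 with both alleles. Every group overlapped the control group, and no comparison passed (adjusted p of 0.086 in double against control and above that elsewhere), although without Sf3b1 K700E replicate 1 double was above Sf3b1 K700E (adjusted p = 0.039).

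Of the other induced genes, Rtp4 had the largest rise in Sf3b1 K700E among called members. Rtp4 (chr16:23520291-23614222, plus strand), a chaperone of G protein-coupled receptors, measured 3.37, 3.47 and 3.92 CPM in control, 6.87, 7.65 and 5.02 with Sf3b1 K700E, 5.88, 5.35 and 4.88 with inv(3) and 10.7, 9.36 and 11.2 with both alleles. Control was below all 9 mutant libraries, and double above all. It rose by 0.86 ± 0.15 in Sf3b1 K700E (adjusted p = 0.0079), 0.58 ± 0.15 in inv(3) (adjusted p = 0.0089) and 1.54 ± 0.15 in double (adjusted p = 1.0e-05). Exons of Rtp4 overlap those of Gm45338 on the same strand, so part of its reads may belong to that gene. Xaf1 (chr11:72301629-72313733, plus strand), which opposes the apoptosis inhibitor XIAP, was 6.41, 5.97 and 6.45 CPM in control, 8.72, 8.12 and 7.38 with Sf3b1 K700E, 11.3, 9.71 and 10.4 with inv(3) and 14.1, 11.4 and 15.2 with both alleles. The 4 groups were ordered control, Sf3b1 K700E, inv(3) and double without overlap, and the step from control to Sf3b1 K700E did not pass (0.36 ± 0.11, adjusted p = 0.062). Trim30a, a mouse TRIM protein that restrains inflammatory signalling, rose by 0.20 ± 0.07 in inv(3) and 0.50 ± 0.07 in double, the former lost without any one of control replicates 2 and 3 and inv(3) replicates 1 and 3 (adjusted p up to 0.12). Ifi35 rose by 0.26 ± 0.05 and 0.24 ± 0.05, and Ifi44 in double alone among the comparisons with control (1.16 ± 0.26, adjusted p = 0.0043).

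The peptide supply genes were the class with no call with all libraries in the fit. They are Tap1 (chr17:34187553-34197225, plus strand), the transporter that brings peptides to class I molecules, and the immunoproteasome subunits Psmb8 and Psmb9. Tap1 measured 152, 137 and 153 CPM in control, 151, 132 and 129 with Sf3b1 K700E, 149, 142 and 129.6 with inv(3) and 155, 141 and 139 with both alleles, with every group overlapping the others. Psmb8 (chr17:34197721-34201454, plus strand) was 165, 159 and 174 CPM in control, 176, 170.0 and 160.4 with Sf3b1 K700E, 161, 145 and 144 with inv(3) and 167, 159 and 150.0 with both alleles. Psmb9 (chr17:34181987-34187764, minus strand) was 67.4, 62.1 and 67.4 CPM in control, 67.9, 59.5 and 57.9 with Sf3b1 K700E, 70.4, 67.4 and 64.9 with inv(3) and 70.4, 68.4 and 64.5 with both alleles. Differences from control lay between -0.15 (Psmb8 in inv(3), adjusted p = 0.077) and 0.05 (Psmb9 in double, adjusted p = 0.6). Without inv(3) replicate 1, Psmb8 passed as lower in inv(3) (adjusted p = 0.024). Psmb9 and Tap1 start 211 bases apart on opposite strands with overlapping exons. Psmb8 was the member with the highest level per length, 272.1 TPM in control.

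Members with a low level per length (TPM) in control had the larger median difference in double against control. The members' control means ran from 0.447 TPM (Ifit3) to 272.1 (Psmb8), with a median of 19.3. The 7 members under 5 TPM had a median log2 difference of 1.11 and 5 were called higher. The 21 members from 5 to 50 TPM had a median of 0.46 with 17 called higher, and the 7 at 50 TPM or more had a median of 0.34 with 3 called higher. Of all genes, at any level, 20.8% were called higher. The share called did not follow the medians and was largest in the middle band. Control libraries enter both the level and the difference, and whether other genes show the same trend with level was not tested. The low band holds Usp18, Ifit1, Ifit3, Rsad2, Rtp4, Xaf1 and Ifi44, and the high band Irf1, Samhd1, Bst2, Ifitm3, Tap1, Psmb8 and Psmb9.

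**Figure D4:**
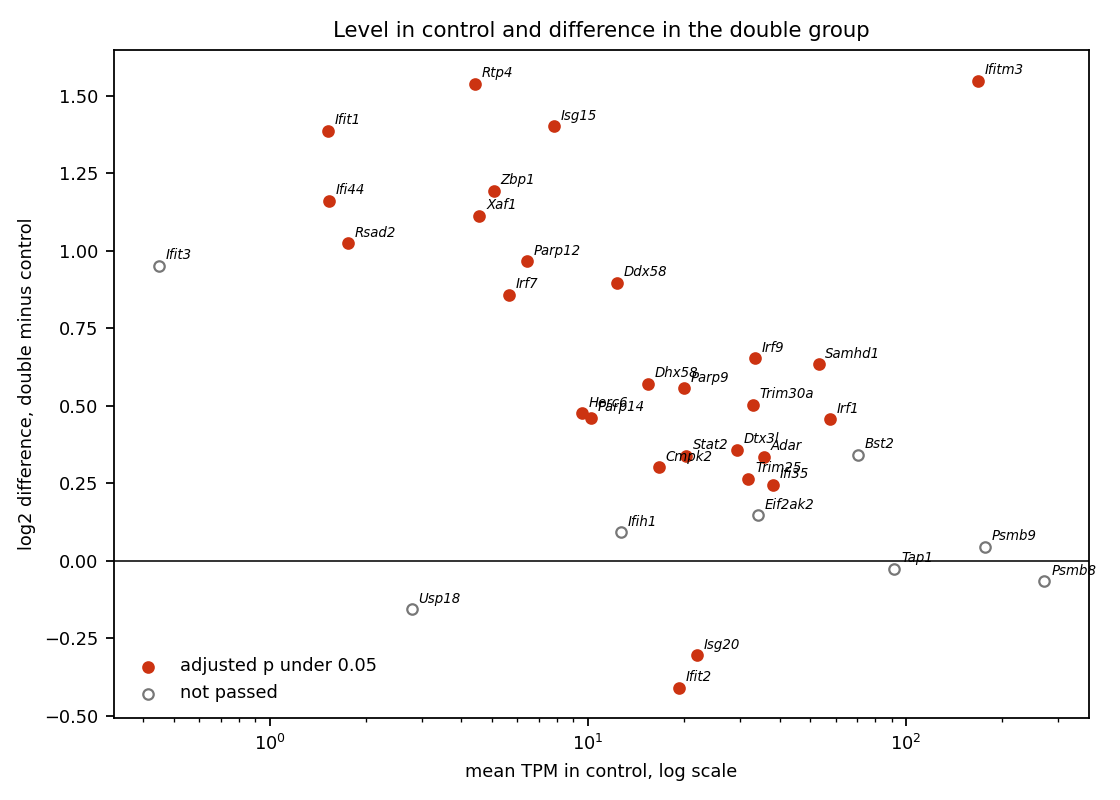
Mean TPM of each member in the 3 control libraries (x axis, log scale) against its log2 difference between double and control (y axis); filled red points have an adjusted p under 0.05. The 7 members under 5 TPM have a median of 1.11 with Usp18 low among them, and Isg15, Zbp1 and Ifitm3 reach differences of that size at higher levels.

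The interaction asks whether the double group departs from the sum of the separate differences of inv(3) and Sf3b1 K700E on the log2 scale. Of the 35 members 1 passed, higher in double than that sum, and 0 were lower, where 0.836% of all genes were called, 0.4% higher and 0.436% lower. It was Samhd1, by 0.34 ± 0.07 log2 units (adjusted p = 0.045), against separate differences of 0.27 ± 0.05 in inv(3) and 0.02 ± 0.05 in Sf3b1 K700E and 0.63 ± 0.05 in double. The value ranged from 0.30 to 0.38 under the other settings, with adjusted p from 0.00075 to 0.14, and the call was lost in 15 of 20. At an unadjusted p under 0.05, 4 members were higher and 0 lower by edgeR, against 9.96% and 6.41% of all genes, and DESeq2 called 2 higher and 0 lower, against 2.22% and 2.3%. For the other 34 members a departure from that sum was not detected, and the median over members was 0.084 log2 units against 0.020 over all genes. The estimates were wide for some: Ifitm3 stood at 0.80 ± 0.36 (adjusted p = 0.3) and Usp18 at -0.42 ± 0.28 (adjusted p = 0.5).

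The genes above the members in the pathway were read from lists of ligands, receptors, signalling, induction, brakes and class I presentation. Of 21 interferon genes listed in the tables, 18 had 0 counts in all 12 libraries, among them Ifnb1 and 13 interferon alpha genes, and 0 of 953479677 counts allows up to 3 counts, or 0.00315 CPM. Ifnab had 6 counts in all and Ifng 1, and Ifnz, the only one tested, had 88 and did not pass. Intervals of this kind cover counting error only, and poly(A) RNA taken 6 months after pIpC holds no record of earlier ligand.

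Among the 6 receptor genes 0 were called higher and 1 lower in inv(3), where 18.4% of all genes were higher and 20.3% lower. In double against control 2 were higher and 2 lower, against 20.8% and 20.4%. Ifnar1, the signalling chain, measured 75.3, 74.5 and 77.2 CPM in control, 83.8, 82.2 and 80.6 with Sf3b1 K700E, 85.5, 71.1 and 77.8 with inv(3) and 98.6, 84.7 and 92.7 with both alleles. Control and inv(3) overlapped and double lay above control, by 0.28 ± 0.07 log2 units (adjusted p = 0.0053). Ifnar2, which binds ligand with high affinity, was 90.3, 87.0 and 90.2 CPM in control, 87.3, 86.1 and 87.9 with Sf3b1 K700E, 98.4, 82.0 and 91.5 with inv(3) and 112, 95.3 and 102 with both alleles. It rose in double by 0.21 ± 0.07 (adjusted p = 0.027), and in inv(3) neither chain passed (0.05 ± 0.07 for Ifnar1 and 0.02 ± 0.07 for Ifnar2). Ifngr1, a chain of the interferon gamma receptor, was lower in Sf3b1 K700E (-0.38 ± 0.09) and in double (-0.32 ± 0.09).

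Among the signalling genes, Stat3, which also serves cytokines such as interleukin 6, rose by 0.40 ± 0.04 in inv(3) and 0.52 ± 0.04 in double, and all 6 libraries with inv(3) were above the 6 without it. Jak1 measured 253, 241 and 236 CPM in control, 237, 263 and 254 with Sf3b1 K700E, 278, 256 and 272 with inv(3) and 286, 300.0 and 322 with both alleles, and rose in double (0.31 ± 0.06, adjusted p = 0.00092) but not in inv(3) (0.14 ± 0.06, adjusted p = 0.064). Tyk2, the other kinase, was 99.3, 102 and 105 CPM in control, 102, 82.2 and 84.4 with Sf3b1 K700E, 106, 114 and 103 with inv(3) and 104, 99.7 and 96.7 with both alleles, and passed in no comparison.

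**Figure D5:**
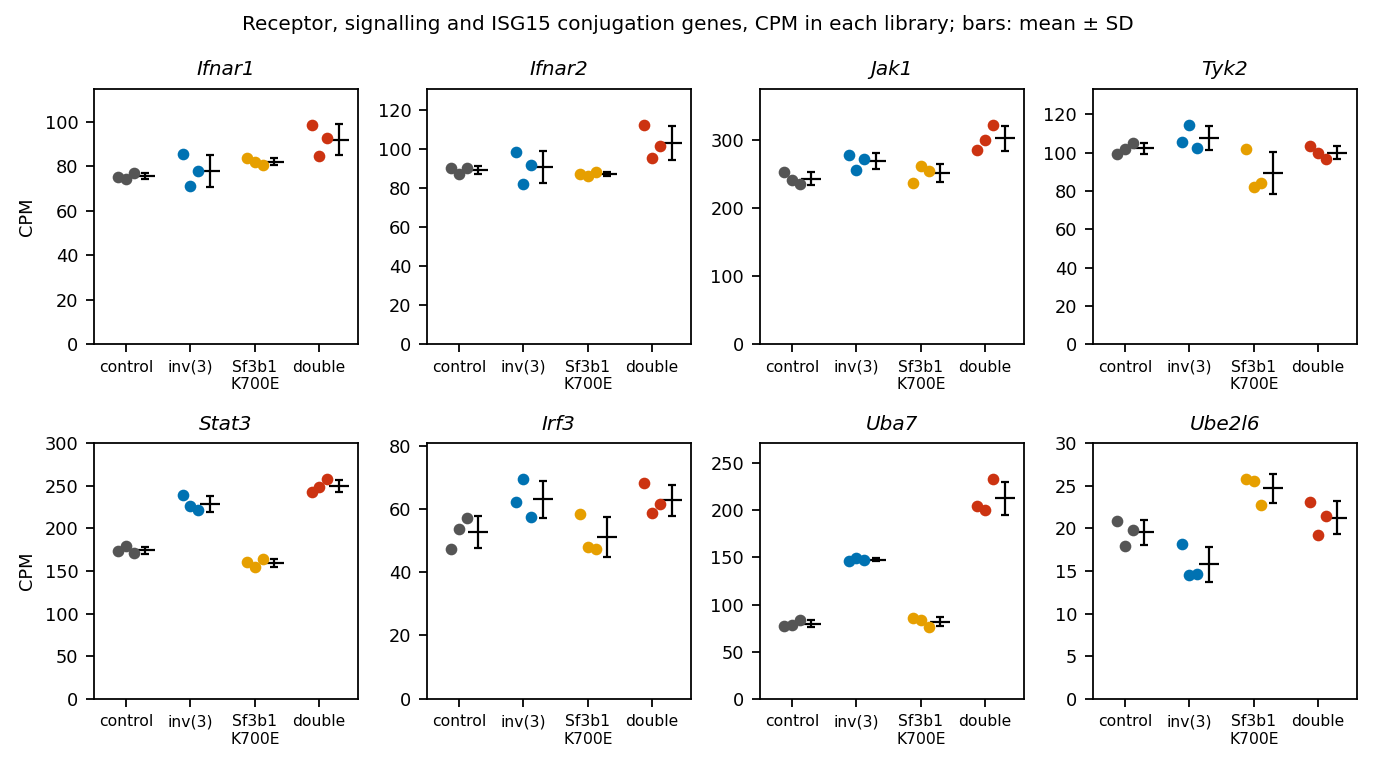
CPM in each library (points) with the mean ± SD of 3 libraries (bars) for 8 genes outside the set: receptor chains, kinases, Stat3, Irf3 and the Isg15-loading enzymes Uba7 and Ube2l6, on axes that start at 0. Stat3 and Uba7 are higher in all 6 libraries with inv(3), while Tyk2 passed in no comparison.

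The induction list, 14 genes that lead from sensing to interferon, had calls in both directions. In inv(3) 4 rose and 3 fell, where 18.4% of all genes rose and 20.3% fell. In Sf3b1 K700E 1 rose and 3 fell, against 3.94% and 4.9%. In double against control 3 rose and 5 fell, against 20.8% and 20.4%. Irf3, the factor activated by the sensors, was 47.4, 53.6 and 57.3 CPM in control, 58.4, 47.9 and 47.3 with Sf3b1 K700E, 62.2, 69.4 and 57.6 with inv(3) and 68.2, 58.7 and 61.6 with both alleles. The inv(3) and double libraries lay above the control libraries, but neither difference was called (0.26 ± 0.10, adjusted p = 0.064, and 0.25 ± 0.10, adjusted p = 0.066). Mavs, the adaptor of RIG-I and MDA5, rose in Sf3b1 K700E (0.39 ± 0.08, adjusted p = 0.014) and in double (0.28 ± 0.08), and its difference in inv(3) was -0.02 ± 0.08. The kinase gene Ikbke rose in inv(3) (0.43 ± 0.06) and fell in Sf3b1 K700E (-0.43 ± 0.07). The fallers with inv(3) were Irf5 (-0.53 ± 0.10), Tlr7 (-0.60 ± 0.16) and Tlr9 (-1.37 ± 0.20), the endosomal receptors of RNA and DNA and a factor they act through, all of which macrophages and dendritic cells express; markers of those cells were lower in the same libraries, and their part was not tested.

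Class I presentation was read in 10 further genes outside the set. In inv(3) 5 rose and 0 fell, where 18.4% of all genes rose. In double 7 rose and 0 fell both against control and against Sf3b1 K700E, where 20.8% and 25.7% of all genes rose. H2-K1, a class I heavy chain, rose by 0.37 ± 0.07 in inv(3) and 0.47 ± 0.07 in double, and its partner B2m by 0.35 ± 0.09 and 0.42 ± 0.09. Nlrc5, the activator of class I genes, rose in double (0.57 ± 0.10) and not in inv(3) (0.03 ± 0.10, adjusted p = 0.85). Of 9 brakes 1 rose and 0 fell in inv(3), where 18.4% of all genes rose and 20.3% fell. In double against control 2 rose and 1 fell, against 20.8% and 20.4%. The risers were Ptpn6, the phosphatase SHP-1, in inv(3) (0.53 ± 0.04) and double (0.51 ± 0.04), and Trex1, which destroys stray DNA, in double (0.49 ± 0.14). Of the 6 targets of interferon gamma, 4 were tested and 0 rose in any comparison, where 0.4% to 25.7% of all genes rose. Cd274 fell in inv(3) (-0.68 ± 0.10) and double (-0.61 ± 0.10), and Ciita, the activator of class II genes, fell in double (-1.52 ± 0.40). Of all genes 20.3% fell in inv(3) and 20.4% in double. These 4 genes are too few to be set apart from such shares.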

How the data were processed

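RNA-seq of 12 mouse libraries was read from the deposited gene tables, which per the file headers hold RSEM expected counts, TPM and effective length for each gene. Per the submitters' processing notes bcl2fastq and mm10 were used; the sources used here name no aligner and no versions. TPM deposited by the authors gave levels per length only. Expected counts were rounded, filtered (filterByExpr by group) and TMM-scaled, and a robust quasi-likelihood model in edgeR 4.0.16 (R 4.3.3) was fitted over all 12 libraries, with Benjamini-Hochberg adjustment over 13755 genes. The 5 pairwise comparisons and the interaction were tested. The members, role classes and pathway lists were chosen with earlier results of these data known. Per-library values are given for the 2 members of each class with the largest differences in inv(3) against control and in double against Sf3b1 K700E, and for members called in the interaction or in Sf3b1 K700E. Counts simulated for inv(3) against control served as a test of the code. Positions are from GENCODE M21 on GRCm38. Alternatives were RLE scaling, other low-count filters, DESeq2 1.42.0, limma-voom (limma 3.58.1), the compared groups alone, a replicate block, an effective-length offset, autosomal scaling and each library left out. The main model did not pair libraries by replicate number. Results for 1 gene of the pathway lists are not reported here.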

Additional observations from a re-analysis of the deposited data

Results flagged for a closer look

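Samhd1, the deoxynucleotide triphosphohydrolase, was the 1 member whose response to Sf3b1 K700E differed between marrow with and without inv(3) by the test of the interaction itself: 0.34 ± 0.07 log2 units (SE, edgeR, adjusted p = 0.045). Its difference between double and inv(3) was 0.36 ± 0.05, and between Sf3b1 K700E and control 0.02 ± 0.05. The direction held in the 20 other settings tried, at 0.30 to 0.38, and the call was lost in 15 of them, with adjusted p between 0.00075 and 0.14. The inv(3) libraries lack Y-linked RNA and the other 9 have it, which in this test cannot be told apart from the genotype.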

How the results depend on the processing

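Of the members called in a comparison, 0 changed direction under the settings tried. For Sf3b1 K700E against control the 3 members called higher became 5 with a mean of at least 5 CPM, 9 by DESeq2 and 9 with the compared groups alone, and 2 to 7 with a library left out. The 1 member above the interaction became 0 with RLE size factors, without the low-count filter, with a mean of at least 5 CPM, with scaling on autosomal genes and with the replicate block, 2 by DESeq2, and 0 to 2 with a library left out. With a library left out, members lower were 1 to 2 in inv(3) and 1 to 2 in double against control. Members higher were 17 to 22 in inv(3), 25 to 26 in double against control, 10 to 18 in double against inv(3) and 22 to 26 in double against Sf3b1 K700E. Calls over all genes, in either direction, moved too. They were 4359 to 5564 in inv(3), 4433 to 5964 in double against control, 1566 to 3342 against inv(3) and 5506 to 7138 against Sf3b1 K700E. The cause was not tested. With the shorter motif GAAANNGAA the promoter share was 48.3%, by construction a wider search. The replicate block left 20 members higher in inv(3), 3 in Sf3b1 K700E, 25 in double against control, 14 against inv(3) and 23 against Sf3b1 K700E. Same-numbered libraries correlated at -0.59 to 0.41. In double against inv(3) each double library correlated best with the inv(3) library of its own number (0.064, 0.23 and 0.24). In the other comparisons most did not, and whether the numbers mark pairs was not settled. Over all genes, Sf3b1 K700E against control gave 1216 calls, 1866 by DESeq2, 654 with the block and 168 to 1649 with a library left out, the fewest without Sf3b1 K700E replicate 2 (168) and control replicate 2 (214). The interaction gave 115, 622, 60 and 32 to 323, and double against inv(3) gave 3103, or 1954 with the compared groups alone and 1566 to 3342 with a library left out. Calls held in every setting for 18 of 21 members in inv(3) (not Rsad2, Adar or Trim30a), 2 of 3 in Sf3b1 K700E (not Rsad2), 26 of 27 in double against control (not Isg20), 10 of 15 in double against inv(3) and 23 of 25 in double against Sf3b1 K700E. Among the members under 5 TPM, Ifit3 had the fewest counts, 112 over the control libraries, and wide errors, while Xaf1 had 1487 counts there.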
